A study of Mus musculus with 18 samples.

Results

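Matricellular proteins are secreted proteins that sit in the extracellular matrix and act on cells and on other matrix proteins rather than building the load-bearing scaffold. The 8 genes described here are Postn, Tnc, Thbs1, Thbs2, Sparc, Spp1, Ccn5 and Smoc1, out of 48440 gene rows in the count files. They are a named list, chosen by hand with results of these libraries known, so that the measured RNA changes at 6h against 0h are among the values that selected them. Their 6h values, and those of 24h against 6h, which rest on the same 6h libraries, are therefore a description without a test. All 8 genes had a count row, and 7 of the 8 passed the filter on low counts. Smoc1 was the exception.

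The cells were immortalized dermal fibroblasts from a newborn male mouse of strain 129/S6. SV40 had been used to immortalize them. Every group of this line carried the macroH2A1/2 double knockout together with a macroH2A2-GFP transgene that doxycycline (dox) switches on, the untreated 0h group included. MacroH2A2 is a large variant of histone H2A, and GFP is the tag through which its chromatin was pulled down. RNA was measured in 3 untreated cultures (0h) and in 3 cultures each after 6h and 24h with 0.5 ug/ml of dox, which the study's design text calls biological triplicates. Native ChIP-seq had 1 library per condition. The inhibitor conditions were 6h and 24h of dox after 10 d in 5 uM of GSK126, an inhibitor of the H3K27 methyltransferase Ezh2, and 24h of dox with 0.5 uM of flavopiridol, an inhibitor of the transcription kinase CDK9, for the last 18 h. The conditions without inhibitor were 0h, 6h, 24h and 5 d of dox. A further library profiled the variant H2A.Z in primary dermal fibroblasts of newborn wild-type females. No group without the transgene received dox, so effects of dox itself and of the induced protein cannot be told apart. Untreated cultures of this line were labelled 0h only, so effects of time in culture cannot be told apart from these either. The line is a single immortalized one, and neither the transgene's promoter beyond its response to dox nor the number of clones is given in the sources used here.

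Periostin (Postn) and tenascin-C (Tnc) are made by fibroblasts at wounds and in developing tissue, and periostin is known to help anchor tenascin-C to the matrix. Thrombospondins 1 and 2 (Thbs1, Thbs2) bind CD36 and CD47 on cells and inhibit the growth of blood vessels, and thrombospondin 1 can activate latent TGF-β. SPARC binds calcium and collagen, osteopontin (Spp1) binds integrins and CD44, CCN5 is a CCN family protein without the carboxy-terminal domain of its relatives, and SMOC1 is a SPARC relative known in Xenopus as an inhibitor of BMP signals.

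Counts over genes ran from 29338093 to 37793178 per RNA library. H2afy2, the gene of macroH2A2, averaged 15.1 ± 8.80, 820 ± 14.3 and 1727 ± 13.8 CPM (read counts scaled to the TMM-normalised library size) at 0h, 6h and 24h (SD, n = 3 each), so each group followed its label. H2afy, the gene of macroH2A1, averaged 56.8, 56.9 and 57.0 CPM at those times. Which part of each locus is deleted is not given in the sources used here, so these counts do not check the knockout. Of 13 fibroblast markers 11 passed the filter, with a summed 10580 to 10880 CPM at 0h, 9840 to 10100 CPM at 6h and 10070 to 10430 CPM at 24h. Dcn, a defining fibroblast proteoglycan, averaged only 1.82, 1.41 and 1.13 CPM at 0h, 6h and 24h. The 6 marker lists of other cell types summed to 12.3 CPM or less in every library, and Krt5, Krt1, Adgre1, Dct, Tyr, Sox10, Myod1, Myog and Lep were at 0 in all 9.

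Start sites were available from RefSeq (GRCm38.p6) for 5 of the 8 genes: Postn, Tnc, Thbs2, Sparc and Spp1. The bases just upstream of 4 start sites are shown, because the ChIP results below turn on whether the regions of macroH2A2-GFP cover these sites (Postn, Spp1) or stop short of them (Tnc, Sparc). Capitals mark the letters TATAAA, the core of a TATA box, searched at any position, so a match by itself does not make a TATA box.
Postn, chr3:54360857-54361106, plus strand: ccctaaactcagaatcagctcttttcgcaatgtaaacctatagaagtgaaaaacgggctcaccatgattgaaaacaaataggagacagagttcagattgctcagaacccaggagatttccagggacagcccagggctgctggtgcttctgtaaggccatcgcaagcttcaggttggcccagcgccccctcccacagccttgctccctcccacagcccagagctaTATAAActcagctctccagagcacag
Tnc, chr4:64047016-64047265, minus strand: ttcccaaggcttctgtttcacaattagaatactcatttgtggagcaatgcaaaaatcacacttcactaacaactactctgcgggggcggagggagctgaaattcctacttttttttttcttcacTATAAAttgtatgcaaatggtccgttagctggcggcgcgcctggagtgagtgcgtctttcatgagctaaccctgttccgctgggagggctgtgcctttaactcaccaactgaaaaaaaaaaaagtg
Spp1, chr5:104434861-104435110, plus strand: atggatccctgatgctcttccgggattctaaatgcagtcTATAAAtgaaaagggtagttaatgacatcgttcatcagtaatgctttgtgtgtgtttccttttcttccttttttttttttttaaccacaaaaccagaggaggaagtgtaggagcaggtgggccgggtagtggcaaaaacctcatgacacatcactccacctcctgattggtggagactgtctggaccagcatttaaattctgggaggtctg
Sparc, chr11:55420081-55420330, minus strand: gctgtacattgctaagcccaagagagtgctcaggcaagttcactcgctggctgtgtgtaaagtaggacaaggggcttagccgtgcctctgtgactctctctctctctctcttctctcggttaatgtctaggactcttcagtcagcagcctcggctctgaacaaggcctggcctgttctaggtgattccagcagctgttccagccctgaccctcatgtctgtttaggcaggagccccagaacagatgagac
These are the letters of the reference assembly, not of the 129/S6 line. In Postn the TATAAA lies 26 to 21 bases before the start. In Tnc the same letters lie 126 to 121 bases before the outermost start, and in Spp1 they lie 211 to 206 bases before it. RefSeq also has a second Tnc start at 64046936, where they lie 205 to 200 bases before it. Much closer to that start are the letters tatataa, which a search for TATAAA does not match. The Thbs2 window holds them on the opposite strand, read as TTTATA, 126 to 121 bases before its start. Of 21262 promoter windows of protein-coding genes, each 250 bases before to 50 bases after a start, 12.6% held TATAAA on either strand. The windows of the 5 genes had no match to TGANTCA (AP-1, in 6.99% of all windows), CATTCC (TEAD, in 13.6%) or the CArG box of serum response factor (in 1.52%), with both strands searched. Guanine and cytosine made up 53.0% of the Postn window shown, with 5 CpG, 47.3% with 10 CpG for Tnc, 45.3% with 3 CpG for Spp1 and 55.3% with 4 CpG for Sparc. The window of the second Tnc start, not shown, had 54.0% with 16 CpG. The median of all windows was 56.3%, with 13 CpG.

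Over the 6h interval the RNA of Postn, Tnc and Spp1 went up and that of Ccn5 went down by amounts far beyond the spread of the cultures, and Thbs1, Thbs2 and Sparc moved by less. At 24h Postn, Thbs2, Sparc, Spp1 and Ccn5 did not pass the threshold against 0h, and Tnc and Thbs1 were lower than at 0h, with Thbs1 between its 6h and 0h levels. Of the 7 genes that passed the filter, 4 were higher and 3 lower at 6h than at 0h at an adjusted p under 0.05 (edgeR's quasi-likelihood test over 13785 genes, Benjamini-Hochberg adjustment). Over all genes tested 20.8% were higher, 18.2% lower and 39.0% either. The groups of libraries did not overlap for any of the 7 genes, nor for Smoc1, against 47.9% of all genes tested. Since these changes went into the choice of the genes, nothing is read from the counts. Among the marker lists of other cell types, those of mural and muscle cells, keratinocytes and immune cells each held 1 gene that was higher at 6h. The mural and muscle sum was 4.51 to 5.72 CPM at 0h, 12.1 to 12.3 CPM at 6h and 4.03 to 4.29 CPM at 24h. Of its 6 genes 1 was tested, Acta1, the skeletal muscle actin, with 4.77, 11.8 and 3.78 CPM, and Myod1 and Myog were at 0. The keratinocyte sum was 6.91 to 7.12 CPM at 0h, 7.64 to 9.06 CPM at 6h and 7.39 to 8.58 CPM at 24h, with 2 of its 6 genes tested, Epcam the one called, and Krt5 and Krt1 at 0. The immune sum was 3.39 to 3.88 CPM at 0h, 3.89 to 4.14 CPM at 6h and 3.74 to 4.65 CPM at 24h, with 3 of its 5 genes tested, Mrc1 the one called, and Adgre1 at 0. Of the 11 fibroblast markers tested, whose sums are given above, 2 were higher and 7 lower at 6h than at 0h, and 1 was higher and 4 lower at 24h than at 0h. The part of these markers in the results was not tested. In bulk cultures, fewer cells that express a gene and less RNA per cell cannot be told apart.

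**Figure D1:**
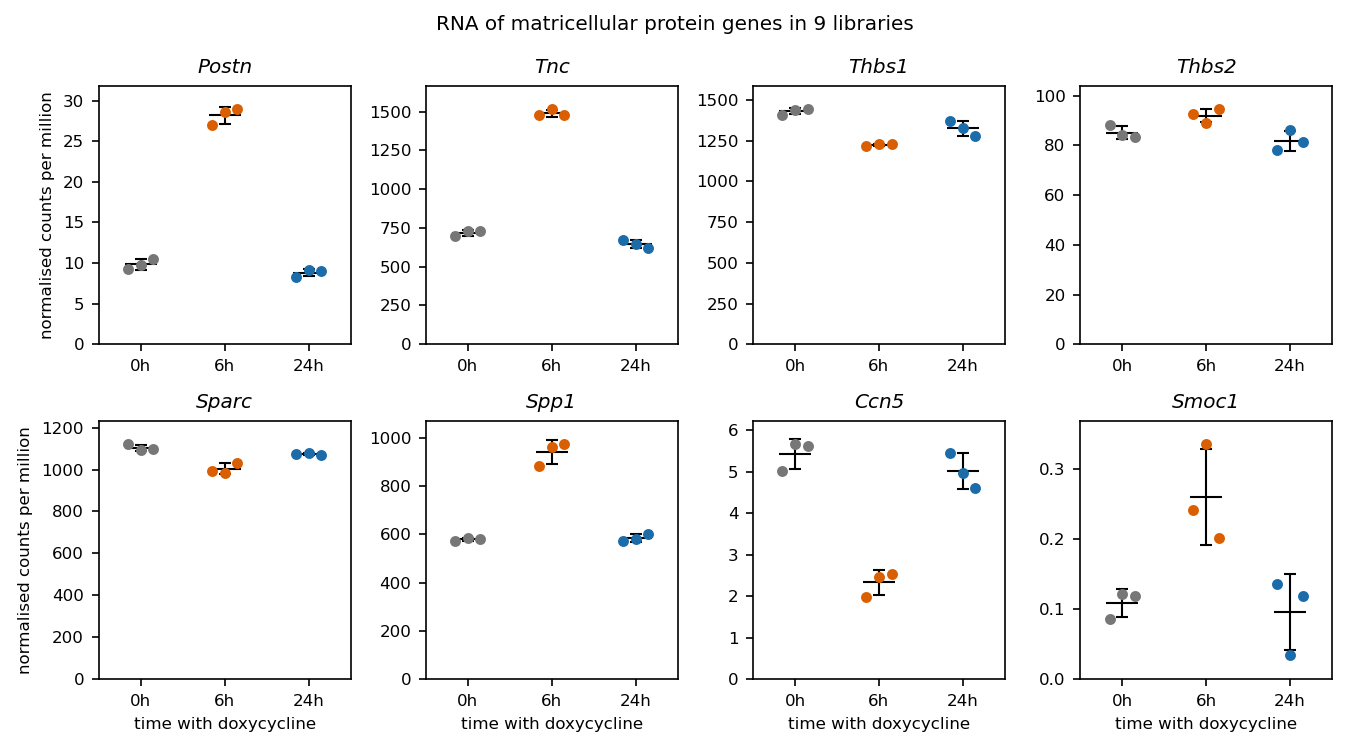
Normalised read counts (CPM) of the 8 genes in the 9 RNA libraries at 0h, 6h and 24h of doxycycline. Points are libraries, the wide bar is the mean and the error bar the SD (n = 3). Postn, Tnc and Spp1 stand highest at 6h and Ccn5 lowest, and the 24h points of Thbs1 lie between its 6h and 0h points.

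Postn had 9.21, 9.78 and 10.5 CPM in the 0h libraries, 27.0, 28.6 and 28.9 CPM in the 6h libraries, and 8.27, 9.16 and 9.05 CPM in the 24h libraries. Every 6h library was above every other library by more than the whole spread of the other 6. The fold at 6h was 2.86 (95% interval 2.62 to 3.13), a log2 change of 1.52 ± 0.0625 (SE), the 27th largest in size among 13785 genes. At 24h Postn stood at a log2 change of -1.68 ± 0.064 (SE) against 6h.

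Tnc, a large hexameric protein that modulates adhesion to fibronectin, had 698, 728 and 730 CPM at 0h, 1477, 1514 and 1477 CPM at 6h, and 675, 647 and 621 CPM at 24h. The 3 time groups did not overlap, and the 24h libraries were the lowest. The fold at 6h was 2.07 (95% interval 1.99 to 2.15), and the log2 change of 24h against 6h was -1.20 ± 0.0273 (SE). An increase of 2-fold or more at an adjusted p under 0.05 at 6h was seen for 0.493% of all genes tested, Postn and Tnc among them.

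Spp1, which binds αv integrins and CD44, had 571, 586 and 581 CPM at 0h, 884, 964 and 974 CPM at 6h, and 572, 580 and 602 CPM at 24h. The 0h and 24h libraries were interleaved and all 6h libraries lay above them. The fold at 6h was 1.62 (95% interval 1.56 to 1.69), and the log2 change was 0.70 ± 0.0291 (SE). Against 6h, the 24h level stood at a log2 change of -0.69 ± 0.0291 (SE).

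Thbs1 and Thbs2, relatives in structure, went opposite ways by small amounts. Thbs1 had 1410, 1441 and 1442 CPM at 0h, 1219, 1228 and 1228 CPM at 6h, and 1371, 1327 and 1280 CPM at 24h. Its 6h libraries were the lowest 3 of the 9. Its fold at 6h was 0.856 (95% interval 0.827 to 0.886), and its log2 change of 24h against 6h was 0.11 ± 0.0245 (SE).

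Thbs2 had 88.2, 84.0 and 83.3 CPM at 0h, 92.4, 89.1 and 94.4 CPM at 6h, and 78.1, 86.1 and 81.4 CPM at 24h. The lowest 6h library lay just above the highest 0h library. The fold at 6h was 1.08 (95% interval 1.03 to 1.13), a log2 change of 0.11 ± 0.0347 (SE). It no longer passed the threshold when 0h replicate 2 (log2 change 0.10), 0h replicate 3 (0.096) or 6h replicate 3 (0.087) was left out. Against 6h, its 24h level stood at a log2 change of -0.17 ± 0.035 (SE).

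Sparc, a collagen-binding protein that also keeps cells from spreading, had 1121, 1096 and 1097 CPM at 0h, 994, 985 and 1034 CPM at 6h, and 1076, 1079 and 1072 CPM at 24h. The groups were ordered 6h, 24h and 0h from low to high without overlap. Its fold at 6h was 0.909 (95% interval 0.879 to 0.94), and its log2 change of 24h against 6h was 0.099 ± 0.0235 (SE). The median size of the log2 change at 6h over all genes tested was 0.134, close to the 0.14 by which Sparc stood below 0h.

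Ccn5 had few reads, 176, 187 and 189 counts at 0h, 74, 81 and 76 counts at 6h, and 202, 146 and 155 counts at 24h. In CPM these are 5.02, 5.66 and 5.63 at 0h, 1.99, 2.46 and 2.55 at 6h, and 5.46, 4.97 and 4.60 at 24h. All 6h libraries lay well below the other 6, which overlapped between 0h and 24h. The fold at 6h was 0.427 (95% interval 0.356 to 0.511), the 75th largest change in size, and a decrease of 2-fold or more was called for 0.472% of all genes tested. The log2 change of 24h against 6h was 1.12 ± 0.129 (SE).

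Smoc1 had 3, 4 and 4 counts at 0h, 9, 11 and 6 counts at 6h, and 5, 1 and 4 counts at 24h. It was too low for the filter, and no fold is given for it. Its 6h libraries were all above the others, at 6 counts or more against 5 or fewer.

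**Figure D2:**
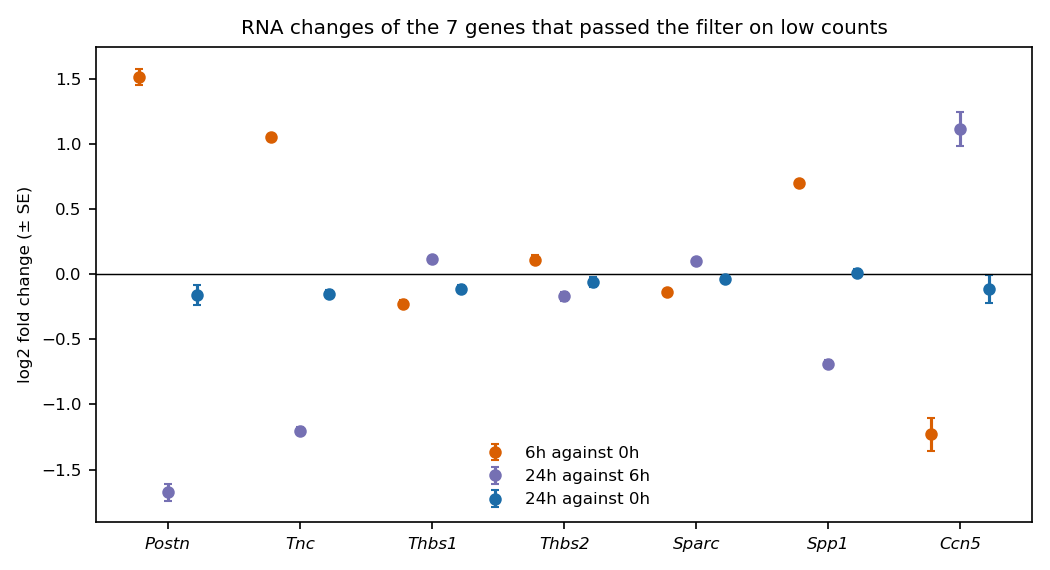
Log2 fold changes (± SE, edgeR, n = 3 per group) of the 7 genes that passed the filter, for 6h against 0h, 24h against 6h and 24h against 0h. The 6h values range from 1.52 (Postn) to -1.23 (Ccn5), and the 24h against 0h values lie between 0.013 (Spp1) and -0.16 (Postn).

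The comparison of 24h with 0h asks what was left of the change. Tnc and Thbs1 were lower at 24h than at 0h, and the other 5 tested genes did not pass the threshold. Tnc averaged 647 ± 27.0 CPM at 24h and 719 ± 18.1 CPM at 0h (SD, n = 3 each), a log2 change of -0.15 ± 0.0272 (SE) with an adjusted p of 0.000491 over all genes (edgeR). Thbs1 averaged 1326 ± 45.4 CPM at 24h and 1431 ± 18.3 CPM at 0h, a log2 change of -0.11 ± 0.0245 (SE) with an adjusted p of 0.00439 (edgeR). These 0h libraries also served in the comparison on which the genes were chosen, so the 2 calls are not independent of it. Over all genes tested, 7.04% passed the threshold at 24h against 0h, 4.17% higher and 2.87% lower. The log2 changes of the others were -0.16 ± 0.075 for Postn (adjusted p 0.238), -0.059 ± 0.0351 for Thbs2 (0.379), -0.039 ± 0.0234 for Sparc (0.397), 0.013 ± 0.0292 for Spp1 (0.875) and -0.11 ± 0.11 for Ccn5 (0.647; SE, edgeR). The interval of the 24h fold ran from 0.806 to 0.997 for Postn, from 0.968 to 1.05 for Spp1 and from 0.791 to 1.08 for Ccn5. These intervals are not adjusted for the number of genes tested, whereas the p values are. The 24h and 0h libraries did not overlap for 4 of the 7 genes, namely Postn, Tnc, Thbs1 and Sparc, against 23.5% of all genes tested. Against 6h, 3 of the 7 genes were higher at 24h and 4 lower, with 36.1% of all genes tested called in that comparison, 17.4% higher and 18.8% lower. The groups of that comparison did not overlap for any of the 7, against 45.3% of all genes tested.

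The other matricellular genes of the list went both ways at 6h. Of 28 relatives 13 were tested, of which 5 rose, 6 fell and 2 did not pass the test at 6h against 0h, when 20.8% of all genes tested were higher and 18.2% lower. This list and those of receptors and matrix partners were written with earlier results of these libraries known, so their p values, taken from the fit over all genes, are not independent of that choice. Smoc2, a SPARC relative next to Thbs2 on the chromosome, averaged 21.6, 49.3 and 17.3 CPM at 0h, 6h and 24h. It rose at 6h by a log2 change of 1.19 ± 0.0552 (SE, adjusted p 5.21e-16, edgeR) and was lower at 24h than at 0h by -0.32 ± 0.064 (adjusted p 0.00158). Of the CCN genes tested, Ccn2, known as connective tissue growth factor, rose at 6h by 0.32 ± 0.027 (adjusted p 1.56e-10). Ccn1 fell with a log2 change of -0.27 ± 0.0261 (adjusted p 2.36e-09), Ccn3 with -0.52 ± 0.101 (adjusted p 0.000145) and Ccn4 with -0.15 ± 0.0279 (adjusted p 0.000114, edgeR). Fbln2, a basement membrane fibulin, rose by 0.22 ± 0.0228 at 6h (adjusted p 1.34e-08). Tnxb, a tenascin like Tnc, averaged 5.13, 2.57 and 5.04 CPM at 0h, 6h and 24h. It had the largest fall of the list at 6h, a log2 change of -0.998 ± 0.127 (adjusted p 3.19e-07, edgeR). At 24h against 0h none of the 13 rose and 2 fell, Smoc2 and Fbln2, with 4.17% of all genes tested higher and 2.87% lower. Fbln2 had a log2 change of -0.083 ± 0.0229 (adjusted p 0.0231, edgeR). Fbln2 lost its call without 0h replicate 2 (log2 change -0.070, adjusted p 0.166), without 24h replicate 2 (-0.083, 0.0786), without 24h replicate 3 (-0.077, 0.055) and with the 6 libraries of the comparison alone (-0.079, 0.0623). The count was 3 with DESeq2's size factors in edgeR, without the filter, with the replicate block, with DESeq2, without 0h replicate 1 and without 24h replicate 1. The list's median log2 change was -0.146 at 6h and -0.017 at 24h, against 0.0067 and -0.00169 over all genes tested.

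Of 20 receptors for these proteins 15 were tested, of which 7 rose, 4 fell and 4 did not pass at 6h, against 20.8% higher and 18.2% lower of all genes tested. Itgb1, the β subunit shared by many fibronectin and collagen receptors, averaged 2112, 2951 and 2115 CPM at 0h, 6h and 24h and rose at 6h by a log2 change of 0.48 ± 0.0221 (SE, adjusted p 4.62e-16, edgeR). Its partner in the fibronectin receptor, Itga5, rose by 0.43 ± 0.0267 (adjusted p 3.9e-13). Cd44, the hyaluronan receptor that also binds osteopontin, rose by 0.43 ± 0.0245 (adjusted p 5.5e-14), and Sdc4, a heparan sulfate co-receptor for fibronectin, by 0.39 ± 0.0286 (adjusted p 1.04e-11). Itgb5, the partner of αv at vitronectin, averaged 161.5, 124.6 and 154.6 CPM at 0h, 6h and 24h and was among those that fell at 6h, with a log2 change of -0.38 ± 0.0299 (adjusted p 4.88e-11). At 24h against 6h, 3 receptors rose and 7 fell, against 17.4% higher and 18.8% lower of all genes tested. Itgb5 was among those that rose, with a log2 change of 0.31 ± 0.03 (adjusted p 2.49e-09). At 24h against 0h, 1 of the 15 passed, against 7.04% of all genes tested. It was Sdc4, which was higher by 0.096 ± 0.029 (adjusted p 0.04). That call was lost without 0h replicate 2 (adjusted p 0.24), 0h replicate 3 (0.0804), 6h replicate 2 (0.0505) or 24h replicate 3 (0.179), with the 6 libraries alone (0.0515) and with DESeq2 (0.0515). The median log2 change of the list was 0.143 at 6h and -0.0235 at 24h.

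Of 15 matrix partners, the collagens, fibronectin, their enzymes and TGF-β genes, 11 were tested. At 6h against 0h 4 rose, 5 fell and 2 did not pass, against 20.8% higher and 18.2% lower of all genes tested. Plat, tissue plasminogen activator, rose by a log2 change of 0.52 ± 0.0382 (SE, adjusted p 1.2e-11, edgeR), and Lox, the enzyme that crosslinks collagen, by 0.25 ± 0.0234 (adjusted p 1.39e-09). Col3a1 fell with a log2 change of -0.29 ± 0.0371 (adjusted p 3.68e-07) and Bmp1, the procollagen protease, with -0.25 ± 0.0318 (adjusted p 3.86e-07). At 24h against 0h none of the 11 rose and 7 fell, against 4.17% higher and 2.87% lower of all genes tested. Col1a1 averaged 2810 CPM at 24h and 3199 CPM at 0h, a log2 change of -0.19 ± 0.0298 (adjusted p 1.01e-04). Col5a1 fell with -0.16 ± 0.0259 (adjusted p 1.84e-04), Lox with -0.13 ± 0.0235 (adjusted p 7.74e-04) and Tgfb1 with -0.19 ± 0.0367 (adjusted p 0.0011). The count of 7 moved between 4 and 8 over the settings. Dropping a single 0h library left 4 (the first), 6 (the second) or 5 (the third). Dropping the third 24h library left 5. DESeq2 gave 6, as did a fit of only the 6 libraries compared. The count was 8 for unstranded counts, for DESeq2's size factors in edgeR, for the replicate block and for no filter. The list's median log2 change was -0.0814 at 6h and -0.124 at 24h.

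**Figure D3:**
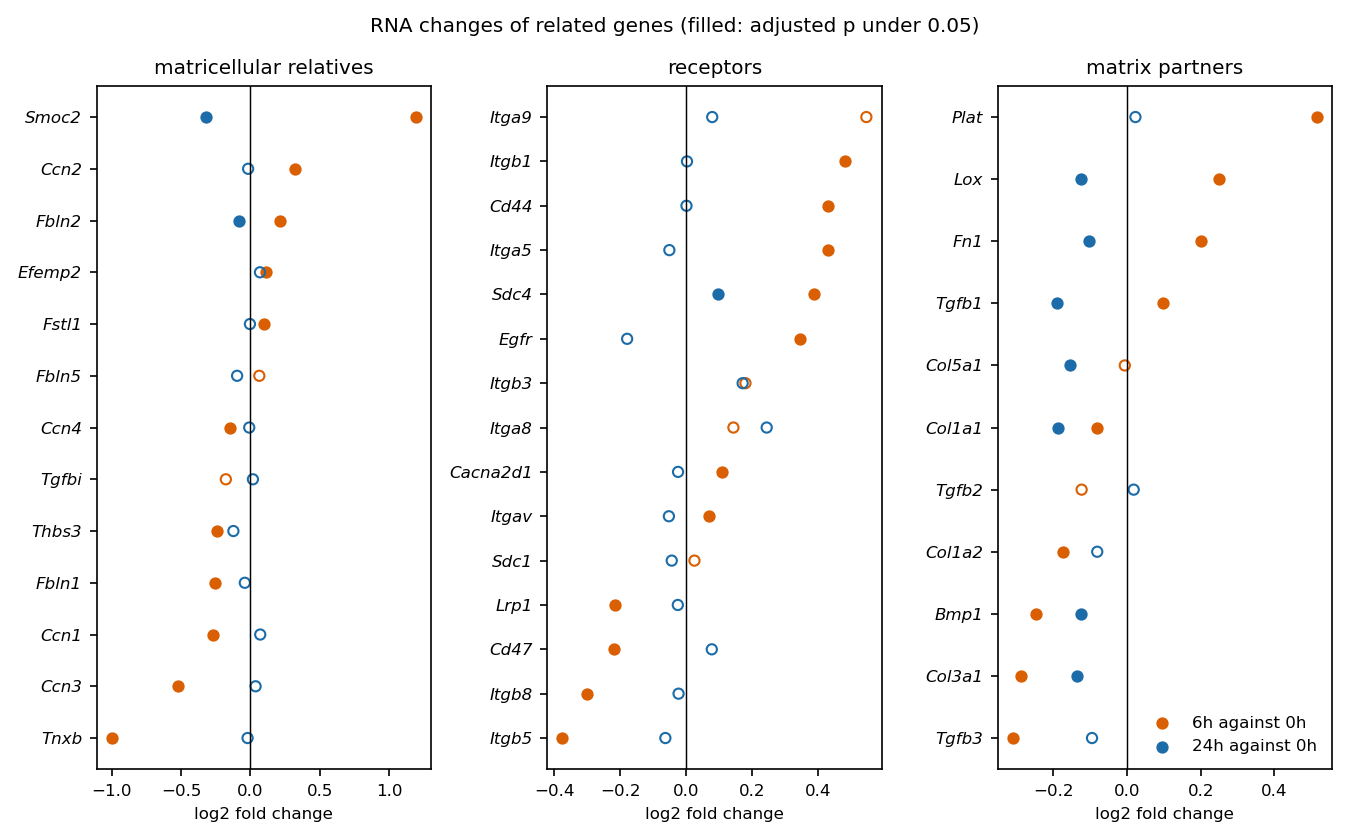
Log2 fold changes of the tested matricellular relatives (13), receptors (15) and matrix partners (11) at 6h against 0h and at 24h against 0h. Filled points passed an adjusted p of 0.05 (edgeR) and open points did not, and 7 of the 11 matrix partners are filled and below 0 at 24h.

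The genes whose mean time course was most like that of each gene were found among 10681 protein-coding genes with 1 CPM or more, by the Euclidean distance between the pairs of log2 changes at 6h and 24h against 0h, over 3 time groups. For Postn they were Has2, a hyaluronan synthase, with 54.7, 151 and 53.5 CPM at 0h, 6h and 24h and a distance of 0.136, Mylk2 at 0.199 and Olfm2 at 0.221. Among those of Tnc were Tll1, a procollagen protease of the Bmp1 family, with 48.5, 95.2 and 43.4 CPM and a distance of 0.0758, and Enpp1 at 0.117. Around Spp1 lay Fhl1, with 366, 593 and 363 CPM and a distance of 0.024, Pmepa1 at 0.0255 and Fbn2, a fibrillin, at 0.0267. Around Ccn5 lay Per2, a clock gene, with 7.95, 3.45 and 7.36 CPM and a distance of 0.0252, Hlf at 0.0368 and Gas1 at 0.19. The nearest genes lay within 0.00526 of Thbs1 (Plekho1, Spc24, Trp53i13), Thbs2 (Dhtkd1, Slc35c1, Msl3l2) and Sparc (Zc2hc1a, Usp5, Hoxb6), whose changes are of common size.

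MacroH2A-containing chromatin is known to lie in broad domains, mostly over genes with little transcription. The deposited region lists were used to ask where the 8 genes stand relative to macroH2A2-GFP regions. Body coverage is the percent of a gene's bases, 1000 trimmed at each end, that lie inside regions called over windows of 200 bases with gaps of up to 800 bases allowed. With 1 library per condition there was no test, and the read depth behind a region is unknown. The macroH2A2-GFP libraries held 28973 to 79953 regions that covered 201 to 392 Mb, fewest at 0h. At 6h a body coverage of 50% or more was found for 20.1% of genes with 100 CPM or more at 0h. It was found for 8.73% of genes not tested for RNA. At 24h these shares were 0.51% and 16.2%. The 0h library came from cells without dox, in which H2afy2 RNA was far lower than at 6h, as given above. Whether the regions called at 0h hold tagged protein was not tested, and the input library was not used here. In 3 of the 56 pairs of a gene and a macroH2A2-GFP library (Tnc at 6h, Thbs2 at 6h with GSK126 and Spp1 at 24h with GSK126) the running number of the regions skipped 1 inside or beside the gene, and a region not analysed here may lie there.

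Coverage differed widely among the 8 genes. Ccn5 lay inside regions in every macroH2A2-GFP library, Thbs2 and Spp1 were covered in part, Smoc1 was covered over 14.3% or less, and Postn was covered only with dox. Tnc and Thbs1 had no region inside in 4 of the 7 libraries and were covered in part in the other 3, and Sparc had none inside in any. Body coverage of 50% or more was found for 1 of the 8 genes at 0h, 3 at 6h, 3 at 24h and 1 at 5 d. The shares of 18411 protein-coding genes were 3.56%, 12.9%, 9.28% and 7.03% at these times. It was found for 3 of the 8 with GSK126 at 6h, 1 with GSK126 at 24h and 3 with flavopiridol, against 14.2%, 6.24% and 13.0% of the protein-coding genes.

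**Figure D4:**
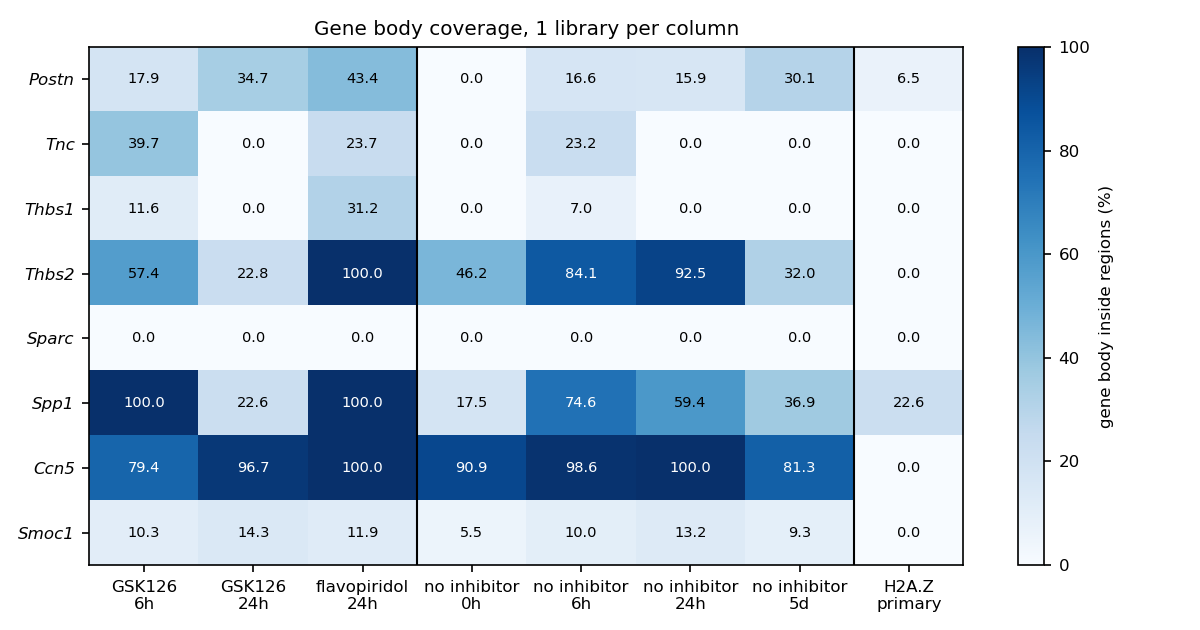
Percent of the gene body inside deposited regions for the 8 genes, 1 library per column, with the inhibitor libraries at the left, the libraries without inhibitor in the middle and H2A.Z of primary cells at the right. Ccn5 is at 79.4% or more in all 7 macroH2A2-GFP columns, and Sparc is at 0 in every column.

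Ccn5 (GRCm38.p6, chromosome 2, 163820752 to 163833146) had a body coverage of 90.9% at 0h, 98.6% at 6h, 100% at 24h and 81.3% at 5 d. It was 79.4% with GSK126 at 6h, 96.7% with GSK126 at 24h and 100% with flavopiridol. A single region of 35800 bases reached from outside into the gene at 0h, and 1 of 37600 bases spanned all of it at 24h. Ccn5 is 1 of 2686 tested genes with under 10 CPM at 0h, of which 5.17% had a coverage of 50% or more at 0h and 16.0% at 24h. The RNA averaged 5.44 CPM at 0h, 2.33 CPM at 6h and 5.01 CPM at 24h, when coverage was 90.9%, 98.6% and 100%. A link between RNA and coverage was not tested.

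Thbs2 (chromosome 17, 14665500 to 14694262) had 46.2% at 0h, 84.1% at 6h, 92.5% at 24h and 32.0% at 5 d. With GSK126 it had 57.4% at 6h, against 84.1% at 6h without it, and 22.8% at 24h, against 92.5% at 24h without it. With flavopiridol a single region of 170000 bases covered 100% of the body, against 92.5% at 24h without it. Among 5971 genes with 10 to 100 CPM at 0h, to which Thbs2 belongs, 13.4% reached 50% at 6h and 1.16% at 24h. Its start-site window of 1000 bases each side lay fully inside a region at 0h and 24h, and 83.1% of it at 6h and 30.0% at 5 d. The next gene at lower coordinates, Smoc2, was covered over 75.6 to 99.0% of its body in the 7 macroH2A2-GFP libraries.

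Spp1 (chromosome 5, 104435111 to 104441053) is the shortest of the 8 genes, at 5943 bases. Its body coverage was 17.5% at 0h, 74.6% at 6h, 59.4% at 24h and 36.9% at 5 d. It was 100% with GSK126 at 6h, against 74.6% at 6h without it, and 22.6% with GSK126 at 24h, against 59.4% at 24h without it. With flavopiridol it was 100%, against 59.4% at 24h without it. In all 7 macroH2A2-GFP libraries a region of 27800 to 90200 bases came in from upstream and covered the outermost start site printed above, with 94.5% of its window inside regions at 5 d and 100% in the other 6 libraries. Of 2339 genes with 100 CPM or more at 0h, which include Spp1, Tnc, Thbs1 and Sparc, 20.1% had a body coverage of 50% or more at 6h and 0.51% at 24h. Spp1 was thus above 50% at 24h, and Tnc, Thbs1 and Sparc were at 0.

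Postn (chromosome 3, 54359267 to 54391041) had no region inside it at 0h, when the nearest regions were 28266 and 13759 bases away. With dox its body coverage was 16.6% at 6h, 15.9% at 24h and 30.1% at 5 d. A region of 4400 bases with the same ends in the 6h, 24h and 5 d libraries spanned both RefSeq starts, the one printed above included. A second region inside the gene began at the same base at 6h, at 24h, with GSK126 at 6h and with flavopiridol. The windows of both starts were 100% inside regions in all 6 libraries with dox and in the H2A.Z library, against 0 at 0h. Body coverage was 17.9% with GSK126 and 16.6% without it at 6h, and 34.7% with GSK126 and 15.9% without it at 24h. With flavopiridol it was 43.4%, against 15.9% at 24h without it.

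Tnc (chromosome 4, 63959785 to 64047015) lay beside a broad domain that stopped just upstream of its start. The region began 585 bases beyond the outermost start at 0h, 6h, 24h and 5 d, 385 bases beyond it with flavopiridol and with GSK126 at 24h, and 185 bases beyond it with GSK126 at 6h. It was 55400 to 61000 bases long with the inhibitors and 57000 to 60800 bases long at 6h, 24h and 5 d, and at 0h regions of 4400 and 48800 bases stood in its place. The gene body itself was at 0 at 0h, 24h, 5 d and with GSK126 at 24h. It was covered over 23.2% at 6h, by 3 regions each with the authors' score of 1, over 39.7% with GSK126 at 6h and over 23.7% with flavopiridol. The bases printed above lie in the gap between start and domain, except that the domain reached into them with GSK126 at 6h.

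Thbs1 (chromosome 2, 118111876 to 118127133) had no region inside at 0h, 24h, 5 d and with GSK126 at 24h, and in those 4 libraries regions lay 1875 to 2275 bases from its lower end and 1067 to 1267 bases from its upper end. At 6h 7.04% of the body was covered, with GSK126 at 6h 11.6%, and with flavopiridol 31.2%, all from regions that entered from the sides. The next gene at higher coordinates, Fsip1, had a coverage of 49.7 to 77.7% in the same 7 libraries.

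Sparc (chromosome 11, 55394159 to 55420080) had no region inside it in any of the 8 libraries, yet regions flanked it closely. Upstream of its start the nearest region was 1920, 720, 720 and 1720 bases away at 0h, 6h, 24h and 5 d. Beyond its other end the nearest was 4158, 358, 558 and 4158 bases away at these times. With GSK126 at 6h, GSK126 at 24h and flavopiridol the distances were 1520, 1320 and 720 bases at the start and 558, 558 and 1158 bases at the other end. Among protein-coding genes without a region inside, regions within 5000 bases on both sides were found for 1.67% at 0h, 6.51% at 6h, 5.02% at 24h and 3.05% at 5 d. The share was 7.3% with GSK126 at 6h, 3.87% with GSK126 at 24h and 5.15% with flavopiridol. Sparc was flanked in this way in all 7 macroH2A2-GFP libraries, and Thbs1 in the 4 named above. A body coverage of 0 was common, at 82.3%, 51.1%, 71.7% and 75.7% of the protein-coding genes at 0h, 6h, 24h and 5 d. With GSK126 at 6h, GSK126 at 24h and flavopiridol these shares were 45.6%, 74.2% and 61.0%. Atox1, the next gene at higher coordinates, was at 0 in the 7 libraries as well.

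Smoc1 (chromosome 12, 81026808 to 81186414) is the longest of the 8 at 159607 bases. Its body coverage was 5.46% at 0h, 10.0% at 6h, 13.2% at 24h and 9.26% at 5 d. It was 10.3% with GSK126 at 6h, 14.3% with GSK126 at 24h and 11.9% with flavopiridol. These values come from 2 to 5 separate regions inside the gene, and with GSK126 at both times there were also regions near the lower end of the gene, where the other macroH2A2-GFP libraries had none.

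**Figure D5:**
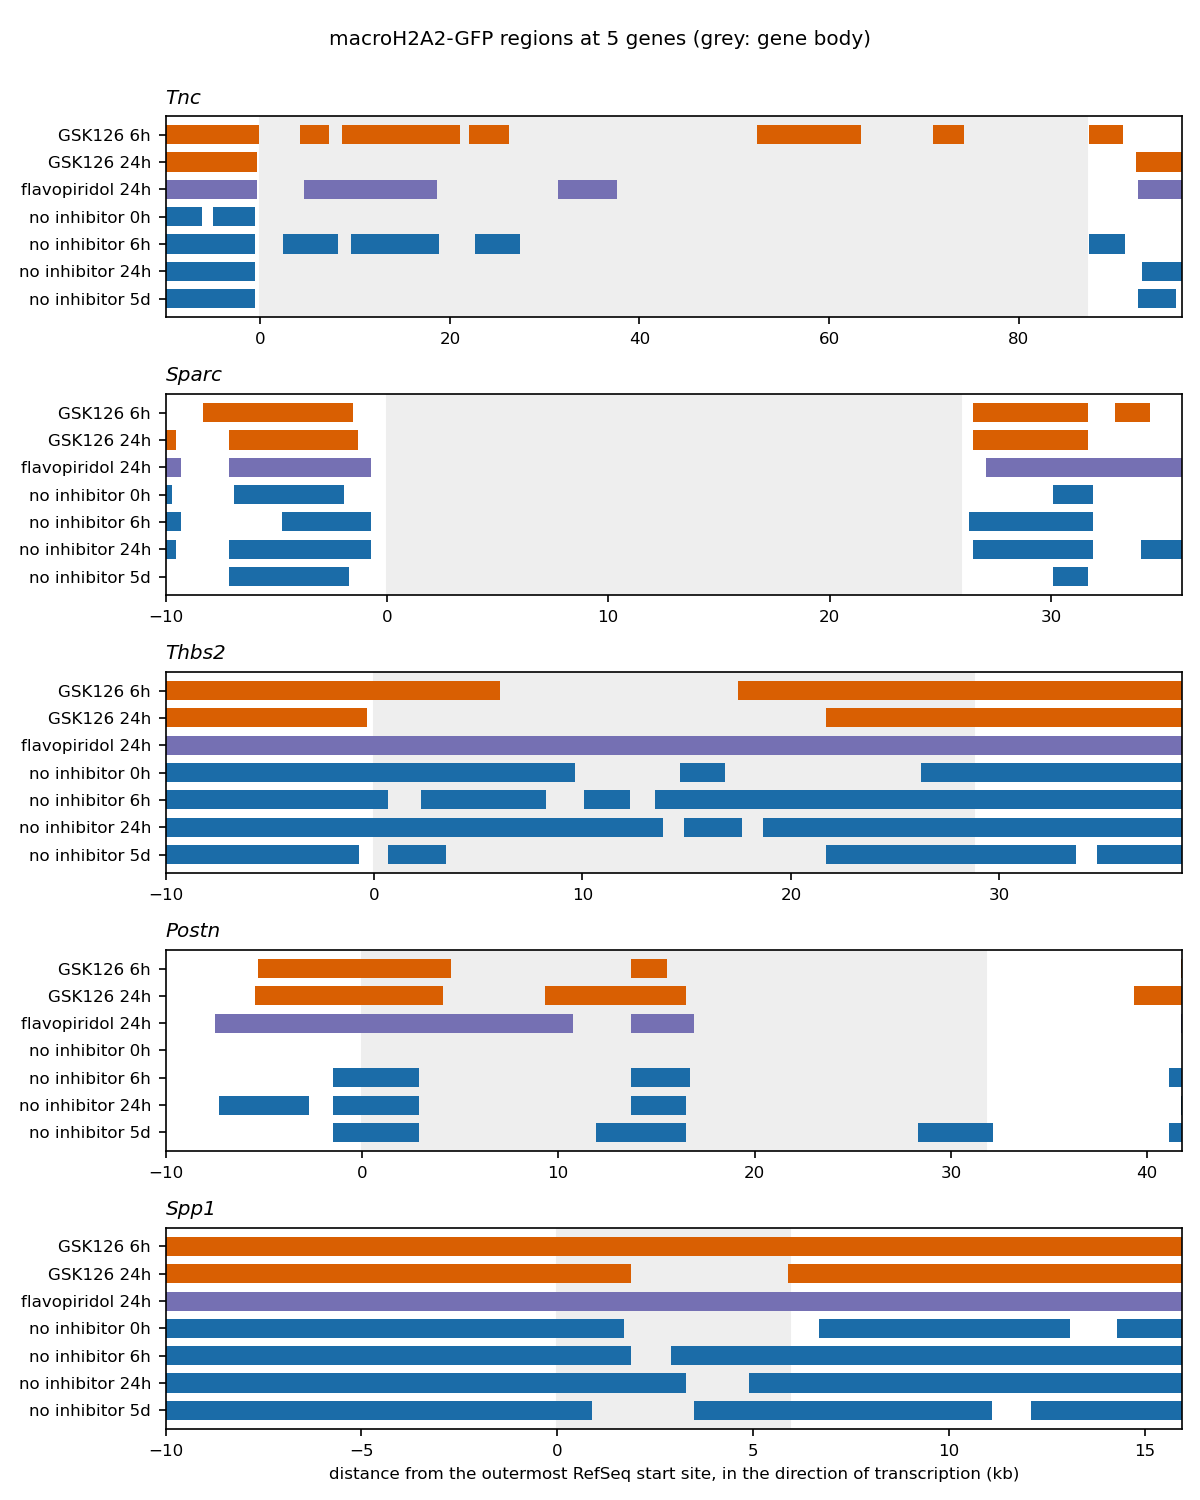
MacroH2A2-GFP regions at Tnc, Sparc, Thbs2, Postn and Spp1 in the 7 macroH2A2-GFP libraries, by distance in kb from the outermost RefSeq start site in the direction of transcription. Bars are regions (orange, GSK126; purple, flavopiridol; blue, no inhibitor) and grey is the gene, with the domain that stops 185 to 585 bases before the Tnc start and the empty body of Sparc.

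A region overlapped the window of 1000 bases each side of a start for 3 of the 5 genes with start sites at 0h, 5 at 6h, 5 at 24h and 4 at 5 d, against 10.2%, 27.8%, 21.6% and 16.2% of 17273 protein-coding genes. With GSK126 it was 4 at 6h and 4 at 24h, and with flavopiridol 5, against 29.6%, 18.2% and 26.0%. The Tnc window was covered over 20.7% at 6h and the Sparc window over 14.0%.

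H2A.Z in the primary wild-type cells is known as a variant of active and poised promoters, and it overlapped the start windows of Postn and Spp1, 2 of the 5 genes, against 60.4% of all genes. It covered 6.5% of the Postn body and 22.6% of the Spp1 body. The bodies of the other 6 genes were at 0, as were 39.2% of all protein-coding gene bodies. None of the 8 reached 50%, against 2.76% of protein-coding genes. These are other cells, of the other sex and not immortalized, so the values stand beside the macroH2A2-GFP values without a comparison.

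For 5 d there was also a list called over wider windows of 1000 bases, with gaps of up to 4000 bases. With these, Postn, Thbs2, Spp1 and Ccn5 were covered over 100% of their bodies and Smoc1 over 22.8%, and Tnc, Thbs1 and Sparc were at 0. That makes 4 of the 8 genes at 50% or more, against 14.1% of protein-coding genes.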

How the data were processed

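RNA was counted by the authors with STAR 2.5.2b on GRCm38.p4, and the deposited values are raw read counts per gene without normalisation, per the submitters' processing notes and the file layout. For the ChIP libraries the submitters' processing notes name Bowtie 1.1.2, SICER 1.1, MACS2 2.1.0 and GRCm38, and the authors deposited SICER region lists, 1 per library. The deposited lists give the authors' whole-number score per region, whose scale is not given in the sources used here, and number the regions in order. Of the 2 strand-specific columns of the deposited counts, the 1 with 96.6% or more of the reads in each library was used. Between 21.2 and 23.1% of reads were assigned to no gene and stayed out of library sizes.

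The fit took in all 9 RNA libraries, with the time group as its one term, filterByExpr for low counts and TMM scaling, in edgeR 4.0.16 under R 4.3.3. It gave quasi-likelihood tests of 13785 genes, adjusted after Benjamini-Hochberg with a threshold of 0.05. The SE is the log2 change over the root of the test's F, and intervals of folds are 95% intervals from it. The fit was tested on simulated data first. Gene coverage and start sites used RefSeq GRCm38.p6 positions on the authors' GRCm38 regions, in Python 3.11.15 (pandas 2.3.3, numpy 2.4.6). Figures used matplotlib 3.10.9. Genes of 3000 bases or more were used. Of 48440 gene IDs 48058 had a symbol. The replicate numbers did not pair the libraries.

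The genes and the gene lists were chosen with earlier results of these data known. The text names all 8 genes, up to 4 called genes per list and comparison with the smallest p, the 3 nearest time courses per gene, and neighbouring genes. A gene that this rule selects is not reported here. Mrc1, Epcam, Acta1, Dcn, Tnxb, Ccn3 and Ccn4 are named because of their values. Levels were not compared between genes, since exon lengths were not used here. The input library was not used.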

Additional observations from a re-analysis of the deposited data

Results flagged for a closer look

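For the 7 genes that passed the filter, the effect at 24h less the effect at 6h, both against 0h, was itself past the threshold (edgeR, 24h against 6h). This log2 difference was -1.68 for Postn, -1.20 for Tnc, -0.69 for Spp1, -0.17 for Thbs2, 1.12 for Ccn5, 0.11 for Thbs1 and 0.10 for Sparc. Since the 6h libraries were among those the genes were chosen on, these differences are a description.

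Reads on the strand opposite to a gene were not used in any comparison. For Tnc there were 25, 41 and 27 such reads at 6h and 15, 14 and 11 at 0h, so that every 6h library was above every 0h library, with 93 at 6h and 40 at 0h in all. As a share of the reads on both strands they were 0.0624% at 6h and 0.0547% at 0h. For Sparc there were 23, 25 and 26 at 24h and 21, 18 and 18 at 0h, with 74 at 24h and 57 at 0h in all, or 0.0688% at 24h and 0.0507% at 0h.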

How the results depend on the processing

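The counts of the 8 genes called higher or lower were the same under DESeq2's size factors in edgeR, DESeq2, no filter, unstranded counts and the 6 libraries alone. With the replicate number as a block they were 4 higher and 3 lower at 6h against 0h, 0 and 2 at 24h against 0h, and 3 and 4 at 24h against 6h, as without it. The block changed no call of the 8 genes, and 0 of 9 same-numbered pairs had a correlation above 0.1 (-0.0183 to 0.039). The alternatives refit the same libraries, those on which the genes were chosen among them, so the counts describe the processing only. Of 314 log2 changes under alternatives, 310 kept their direction and side of the threshold. The others were the 3 Thbs2 values given above and Spp1 at 24h against 0h, which ran from -0.0066 (without 24h replicate 3) to 0.029 with 1 library left out and was never called. DESeq2 gave Ccn5 no adjusted p at 24h against 0h. Smoc1, tested only without the filter, was not called. Scalings moved the median of all genes by 0.0061 or less (log2). Among the related genes at 6h against 0h, the settings gave 5 to 6 relatives higher and 5 to 7 lower. They gave 6 to 7 receptors higher and 3 to 4 lower, and 3 to 4 matrix partners higher and 4 to 5 lower.

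The counts of covered genes depended on the limits, and 48 of 65 stayed within 1.5 times. With a limit of 20% coverage the counts were 2 at 0h, 4 at 5 d, 6 with flavopiridol, 4 with GSK126 at 24h and 1 for H2A.Z. With 80% it was 1 with GSK126 at 6h. Over the whole gene it was 2 at 5 d, and with the wider windows 4. At start sites, 500 bases each side gave 3 at 6h, 3 at 24h and 2 at 5 d. With 50% of the window covered it was 3 at 6h, 3 at 24h, 2 at 5 d, 3 with flavopiridol and 2 with GSK126 at 24h. Regions at or above the median score gave 1 for H2A.Z. Region depth and replicate spread are unknown.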

Other observations

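The genes beside the 8 differed in their coverage by macroH2A2-GFP regions. Tnfsf8, a TNF family ligand on the far side of Tnc from the upstream domain, was covered over 37.8%, 66.1%, 89.4% and 100% of its body at 0h, 6h, 24h and 5 d, while Tnc was at 0, 23.2%, 0 and 0. Pappa, the next gene beyond the other end of that domain, had 16.3%, 56.5%, 37.9% and 28.8% at these times. It does not adjoin the domain, which ended at base 64108400 at 24h and 5 d, whereas Pappa starts at base 65124174. Wdr27, on the side of Thbs2 away from Smoc2, had 56.1 to 92.9% in the 7 libraries.

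Fat2, a large cadherin next to Sparc, had 21.9%, 17.0%, 60.3% and 51.4% at 0h, 6h, 24h and 5 d, beside 0 for Sparc. Kcnk15, a potassium channel gene next to Ccn5, had 38.4%, 51.2%, 97.6% and 100%, whereas Ada on the other side of Ccn5 was at 0 in all 8 libraries. Mepe, a relative of Spp1 in the same gene cluster, had 40.8 to 62.7% in the 7 macroH2A2-GFP libraries.

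Smoc2 and Ccn5 both lay inside regions at 0h and at 6h. Coverage of the Smoc2 body was 95.5% at 0h and 90.3% at 6h, and that of the Ccn5 body was 90.9% and 98.6%. At 6h against 0h the log2 change of Smoc2 was 1.19 ± 0.0552 and that of Ccn5 was -1.23 ± 0.127 (SE, n = 3 per group). A link between the RNA and the coverage of these genes was not tested.

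Some markers of other cell types moved at 6h from low levels. Epcam averaged 2.57 CPM at 6h and 1.46 CPM at 0h, a log2 change of 0.83 ± 0.174 (adjusted p 3.52e-04, edgeR), and Mrc1 averaged 1.05 CPM at 6h and 0.394 CPM at 0h, a log2 change of 1.42 ± 0.285 (adjusted p 2.07e-04, edgeR).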
